A study of Mus musculus with 9 samples.

Results

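The MARCH (membrane-associated RING-CH) genes encode E3 ubiquitin ligases, most of them anchored in membranes, and 8 of them were examined here: March8, March1, March2, March3, March5, March6, March7 and March9, which newer gene lists call Marchf1 to Marchf9. They were taken by name from the 56289 genes of the deposited gene table, and March8 leads the set because its own level differed most clearly between cells given TNF-α with and without Wang Bi tablet (WBT) in an earlier reading of these data. The contrast of TNF-α+WBT with TNF-α therefore chose March8, and its values below are a description with no test. The study sequenced poly(A) RNA of RAW264.7, a mouse line of BALB/c origin cultured as a model of macrophages, in 9 libraries. The Con group received PBS, and the TNF-α group received recombinant human TNF-α at 20 ng/ml. The TNF-α+WBT group, which the sample labels call WBP, received TNF-α at 20 ng/ml with WBT at 1.0 μg/ml. Each group was treated for 24 h and holds 3 libraries, which the study describes as biological replicates. WBT is a Chinese tablet made from many herbal and animal ingredients, so the added agent is a mixture, and all 3 groups are cultures of a single line.

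An E3 ligase of this family uses its RING-CH domain, a zinc-binding fold of cysteines and a histidine, to accept an E2 enzyme carrying ubiquitin and pass the ubiquitin to a nearby membrane protein. Tagged proteins at the cell surface are taken into endosomes and sent to lysosomes by the ESCRT sorting complexes, while MARCH6 works in the endoplasmic reticulum and MARCH5 in the outer membrane of mitochondria. MARCH8 and its close relative MARCH1 are known for removing MHC class II molecules, CD86, the transferrin receptor and several cytokine receptors from the surface, and MARCH1 is known mainly from dendritic cells and B cells.

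Values are FPKM, fragment numbers divided by transcript length and by library depth, so levels can be compared between genes. Estimated depth was 16844889 to 26050620 fragments per library, and the TNF-α+WBT libraries were the shallowest group. The label macrophage was checked with 14 macrophage genes: only the LPS co-receptor gene Cd14 exceeded 1 FPKM in all 9 libraries, and 7, with the pan-leukocyte gene Ptprc, the integrin gene Itgam and the lineage factor gene Spi1 among them, were listed at 0 throughout. In the same libraries 8 of 10 fibroblast genes and 9 of 12 Schwann cell genes exceeded 1 FPKM, so the defining transcripts go against the macrophage label. The summed Schwann cell markers ran from 974 to 1032 FPKM in Con, 779 to 841 in TNF-α and 850 to 876 in TNF-α+WBT. The summed fibroblast markers ran from 4558 to 4840, 5017 to 5277 and 4928 to 5047 FPKM in the same order, and the macrophage markers from 6.05 to 7.44, 7.05 to 8.07 and 7.24 to 8.81 FPKM. In bulk RNA, a change in the share of cells of a kind and a change in RNA per cell cannot be told apart.

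March8 (ENSMUSG00000025702) lies on the plus strand of mouse chromosome 6 from 116338024 to 116409540 in GRCm38, by the GENCODE M21 annotation. Its level in the Con libraries was 15.7, 13.3 and 12.9 FPKM (14.0 ± 1.52, SD, n = 3). Among TNF-α libraries it was 11.8, 12.6 and 10.8 FPKM (11.8 ± 0.884, SD, n = 3). Among those with TNF-α+WBT it was 26.9, 25.6 and 28.9 FPKM (27.1 ± 1.70, SD, n = 3). All 3 TNF-α+WBT libraries lay above all others, and all 3 TNF-α libraries lay below all Con libraries. On the log2(FPKM + 0.1) scale the difference was 1.20 for TNF-α+WBT against TNF-α (SE 0.089), 0.95 for TNF-α+WBT against Con (SE 0.089) and -0.25 for TNF-α against Con (SE 0.089). The mean FPKM with TNF-α+WBT was 2.31 times that with TNF-α and 1.94 times that of Con.

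March8 was picked because it alone of 25417 genes tested, 0.00393% of them, had a Benjamini-Hochberg adjusted p under 0.05 for TNF-α+WBT against TNF-α in the limma fit, and nothing is read from that count. That count was 0 without Con replicate 2 or TNF-α+WBT replicate 1, 2 without Con replicate 3, TNF-α replicate 2 or TNF-α replicate 3, 3 without TNF-α+WBT replicate 3 and 10 without TNF-α+WBT replicate 2. The genes next in order of p in that contrast were Gm48884 and Atf3. Gm48884 was 0 in every TNF-α library and averaged 0.200 ± 0.056 FPKM in the TNF-α+WBT libraries (SD, n = 3). That is at most 1.9 estimated fragments per library, under the limit of 3 fragments that a count of 0 allows, so its difference is not established. Atf3, a stress-induced transcription factor, measured 20.7 ± 1.09 FPKM without and 27.7 ± 0.898 FPKM with WBT (SD, n = 3).

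**Figure D1:**
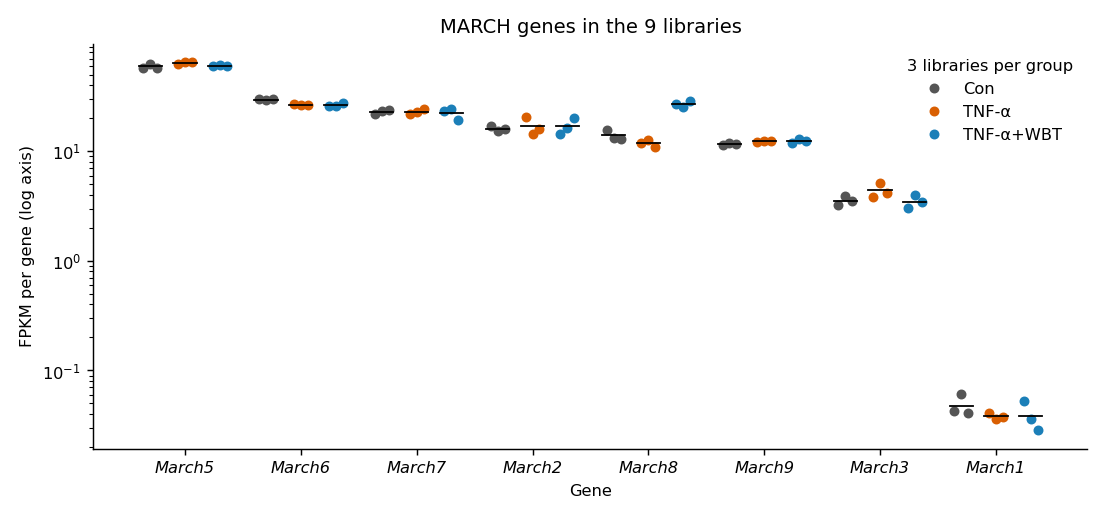
FPKM per gene on a log axis for the 8 MARCH genes in each of the 9 libraries, coloured by group, with a black line at each group's mean. March8 in TNF-α+WBT sits at 25.6 to 28.9 FPKM against 10.8 to 15.7 in the other libraries, while for each of the other 7 genes the fitted log2 fold changes lie between -0.33 and 0.29.

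The annotation holds 16 transcripts of March8, and 15 of them were above 0 FPKM in at least 1 library. Only 3 of them, March8-201, March8-202 and March8-213, run to the end of the gene or, in March8-213, to 2 bases before it. Their last exon has 3516 bases in March8-201 and March8-202, of which 3217 follow the last amino acid codon. March8-201 and March8-202 encode the same protein of 286 residues. March8-213 skips the exon that holds their start codon and encodes 247 residues, identical to the end of the longer protein, so that it lacks the first 39 residues. The coding sequences at which the proteins start are shown because they are what tells the long and the short form apart. Both come from the GENCODE M21 transcripts, are written 5′ to 3′ on the plus strand, have the start codon in capitals, and lie at chr6:116376771-116376863 and chr6:116392548-116392574 in GRCm38.
March8-201 and March8-202 first coding exon: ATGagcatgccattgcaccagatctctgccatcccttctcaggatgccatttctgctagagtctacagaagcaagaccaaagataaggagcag
March8-213 first coding stretch: ATGagtcatccaagcaacatttctaag

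Together the 3 transcripts that reach the gene end measured 7.13, 4.25 and 5.00 FPKM in the Con libraries. They measured 5.74, 3.61 and 3.71 FPKM with TNF-α alone. Where WBT was added they measured 18.9, 17.9 and 20.5 FPKM, above every other library. The group means were 5.46 ± 1.49, 4.35 ± 1.20 and 19.1 ± 1.31 FPKM (SD, n = 3 each), so the mean with TNF-α+WBT was 4.39 times that with TNF-α. The other 13 transcripts together measured 8.61, 9.04 and 7.94 FPKM in Con, 6.10, 8.999 and 7.14 in TNF-α and 8.01, 7.67 and 8.45 in TNF-α+WBT. Their group means of 8.53 ± 0.551, 7.41 ± 1.47 and 8.04 ± 0.391 FPKM (SD, n = 3 each) came from overlapping libraries with and without WBT, and the ratio of these means was 1.09.

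The share of March8 FPKM in the 3 transcripts reaching the gene end was 45.3%, 32.0% and 38.6% in Con and 48.4%, 28.6% and 34.2% in TNF-α. It was 70.2%, 70.0% and 70.8% in TNF-α+WBT, so the TNF-α+WBT libraries lay within 1 percentage point of each other and above all others. Because these transcripts are long, they held more of the estimated fragments: 72.6% ± 5.44 in Con, 72.0% ± 8.96 in TNF-α and 91.5% ± 1.09 in TNF-α+WBT (SD, n = 3 each). Estimated fragments of all March8 transcripts were 445 to 664 per library in TNF-α and 1639 to 1739 in TNF-α+WBT. Per 1000000 fragments they came to 26.7 ± 4.20 and 92.7 ± 6.97 (SD, n = 3), a ratio of 3.47, which is larger than the ratio of FPKM because FPKM divides by the longer length. With most bases of each of these transcripts lying after the coding sequence, and no positions of fragments in the table, the values do not say which bases of the last exon were covered.

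**Figure D2:**
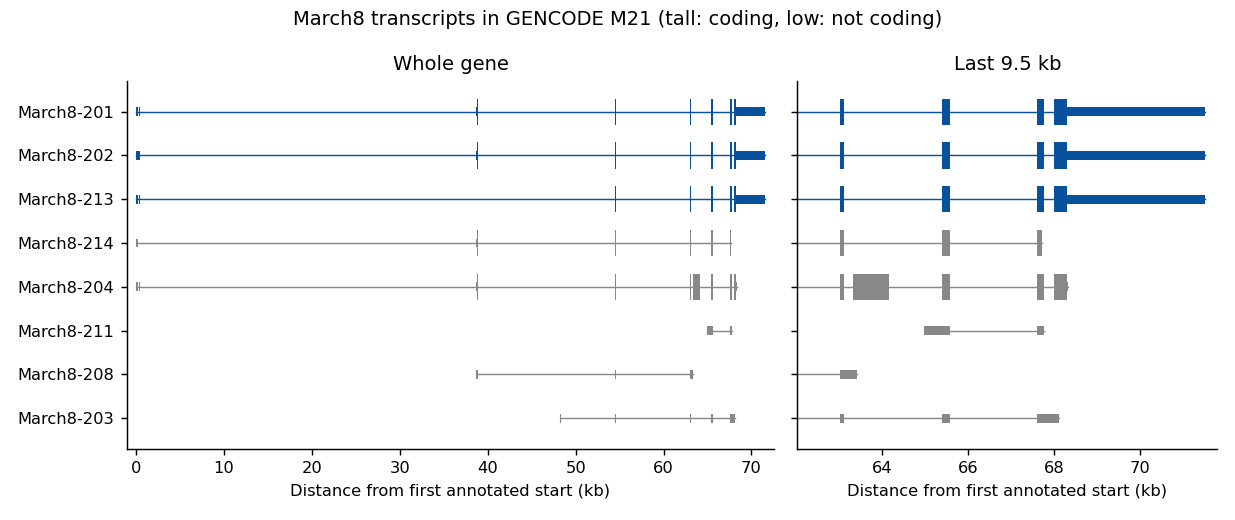
Exons of 8 March8 transcripts in GENCODE M21 along the distance from the first annotated start in kilobases, for the whole gene and its last 9.5 kb, with coding bases drawn tall. The 3 transcripts in blue run through the last exon to the gene end or, in March8-213, to 2 bases before it, while March8-204 holds only the beginning of that exon.

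The division of the signal among the 3 differed between libraries of a group. With TNF-α+WBT, March8-213 measured 17.1, 1.45 and 1.96 FPKM in replicates 1, 2 and 3, that is 90.6%, 8.12% and 9.55% of the sum of the 3. March8-201 measured 0.318, 6.89 and 5.90 FPKM and March8-202 measured 1.46, 9.54 and 12.6 FPKM in the same libraries. The same held in Con, where March8-213 took 79.1%, 47.7% and 25.0% of the sum. With TNF-α+WBT the sum of the 3 was thus close between replicates, at 17.9 to 20.5 FPKM. The split between the transcripts of the long and the short protein was not close. These transcripts share most of their bases, which leaves the division of fragments among them uncertain. In Con and TNF-α both the sum and the split varied.

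**Figure D3:**
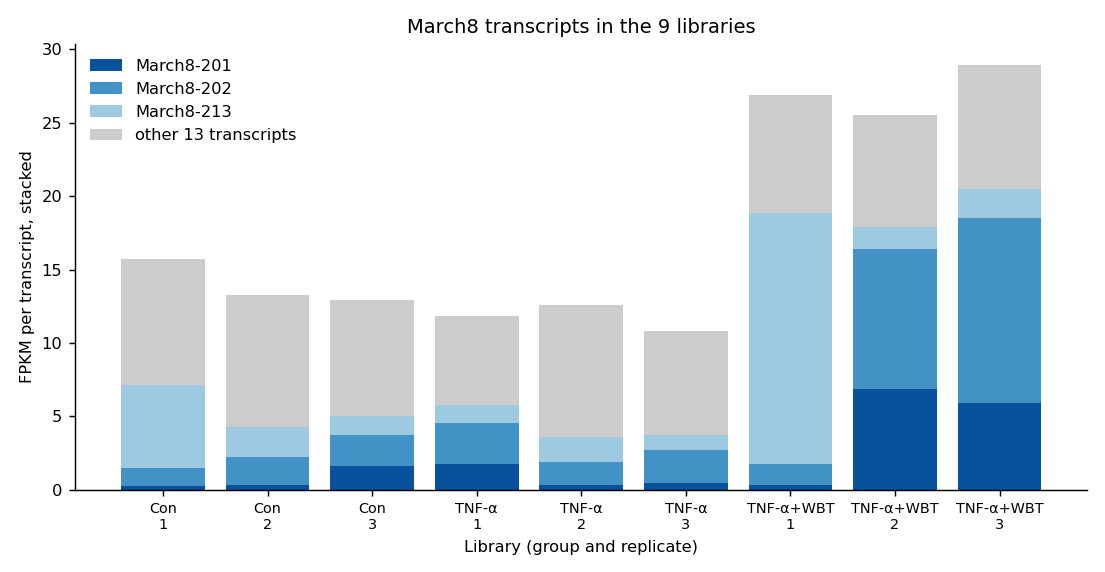
Stacked FPKM of March8 transcripts in each library, with the 3 transcripts that reach the gene end in blue and the other 13 summed in grey. The blue part is 3.61 to 7.13 FPKM in Con and TNF-α and 17.9 to 20.5 in TNF-α+WBT, the grey part 6.10 to 9.04 throughout.

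Among the other 13 transcripts, March8-214, a coding transcript that stops short of the last exon, averaged 2.22 FPKM over the 9 libraries and ranged from 1.40 to 3.06. March8-204 encodes 568 residues through an extra exon of 846 bases and ends 3184 bases before the gene end. It measured 1.73 to 2.04 FPKM in Con, 0.980 to 1.85 in TNF-α and 1.23 to 1.94 in TNF-α+WBT. March8-211, a processed transcript without a reading frame, ranged from 0.740 to 1.88 FPKM. The retained-intron transcripts March8-208 and March8-203 ranged from 0.477 to 1.65 and from 0.445 to 1.34 FPKM. March8-205, March8-209, March8-210, March8-207, March8-215, March8-216 and March8-206 averaged 0.379, 0.177, 0.178, 0.115, 0.062, 0.025 and 0.022 FPKM over the 9 libraries, and March8-212 was listed at 0 in all of them.

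March8-201, March8-202 and March8-213 begin at most 32 bases apart, and March8-204 and March8-214, whose libraries with and without WBT overlapped, begin in the same stretch. For March8-201, March8-202 and March8-213 only the sum stood apart with TNF-α+WBT, and each alone overlapped between libraries with and without WBT. The 252 bases before the first of these starts are shown because all of these transcripts share them. They are chr6:116337772-116338023 on the plus strand in RefSeq, GRCm38.p6, and matches to GGGCGG and CACGTG on either strand are in capitals.
March8 promoter: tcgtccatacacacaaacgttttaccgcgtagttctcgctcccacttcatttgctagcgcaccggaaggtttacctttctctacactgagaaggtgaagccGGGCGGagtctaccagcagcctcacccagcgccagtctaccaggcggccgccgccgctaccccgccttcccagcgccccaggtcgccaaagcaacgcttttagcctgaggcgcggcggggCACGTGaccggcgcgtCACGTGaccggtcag
The window is 63.1% G or C, against a median of 52.4% over 32851 promoter windows of the same length. It holds GGGCGG, the GC box, 1 time, as 33.0% of the windows do at least 1 time. It holds CACGTG, an E-box, 2 times, and 6.07% of the windows hold it. CACGTG was added to the search after the sequence had been read. No match was found to CCAAT (34.0% of windows) or to the AP-1 motif TGANTCA (6.84%). Among the 9 MARCH genes searched, only March8 and March10 held CACGTG. March3 was left out of this search.

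The neighbours of March8 were read for signal that might run across gene borders. Alox5, 5-lipoxygenase, ends 536 bases beyond March8 on the opposite strand and measured at most 0.015 FPKM. Olfr211, an olfactory receptor farther on, was listed at 0 in all 9 libraries. On the other side Zfand4 measured 0.342 to 0.636 FPKM and Washc2, a subunit of the WASH complex that sorts endosomal cargo, 33.8 to 38.4 FPKM. The limma log2 fold changes of TNF-α+WBT against TNF-α were 0.02 for Zfand4 (SE 0.25, adjusted p = 1.0) and 0.01 for Washc2 (SE 0.061, adjusted p = 0.997).

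In Con, the family ran from March5 at 59.2 FPKM through March6 (29.5), March7 (23.0), March2 (16.1), March8 (14.0), March9 (11.7) and March3 (3.54) to March1 at 0.048 FPKM (means, n = 3). Of neighbours in this order, only March2 and March8 overlapped in their libraries. With TNF-α, March8 stood below March9 and their libraries overlapped. With TNF-α+WBT, March8 came next after March5 with 27.1 FPKM, overlapping March6 at 26.2 FPKM. Of the family genes not among the 8, March4 measured 0.142 to 0.342 FPKM and March10 at most 0.360 FPKM, and March11, known from testis, was listed at 0 in all 9 libraries.

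In TNF-α against Con, none of the 7 MARCH genes other than March8 had an adjusted p under 0.05 in limma, where 4.86% of the 25417 genes did. At an unadjusted p under 0.05 there were 2, March5 and March6, where 16.1% of all genes passed. In TNF-α+WBT against TNF-α, none of the 7 passed either threshold, with 6.31% of all genes at an unadjusted p under 0.05. In TNF-α+WBT against Con, none passed after adjustment, where 3.71% of all genes did, and 1, March6, passed unadjusted, where 14.7% did. In limma-voom on estimated fragments, 1 of the 7, March6, had an adjusted p under 0.05 in each comparison with Con, and none had one in TNF-α+WBT against TNF-α. The 3 comparisons share libraries and are given side by side for that reason.

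**Figure D4:**
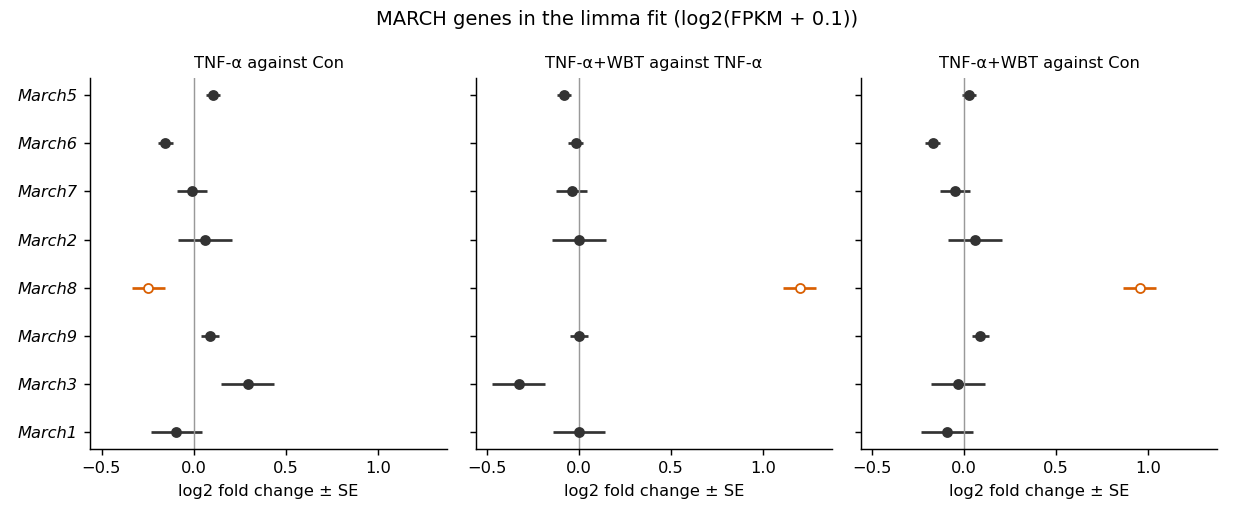
Log2 fold change in the limma fit with its SE, from log2(FPKM + 0.1), for the 8 MARCH genes in the 3 comparisons, with March8 as an open circle because it was chosen on the middle one. March8 lies at 1.20 with WBT against TNF-α, and the other 7 lie between -0.33 and 0.29 in all 3 panels. For March1, near the detection limit, the added 0.1 FPKM understates changes.

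March1 (chromosome 8), the closest relative of March8, encodes a protein with 65.6% of aligned positions identical to March8-201, and 87.2% within the RING-CH pattern. Its level was 0.042, 0.060 and 0.041 FPKM in Con, 0.041, 0.036 and 0.038 in TNF-α and 0.052, 0.036 and 0.028 in TNF-α+WBT. That is 2.0 to 5.5 estimated fragments per library, near the limit of 3 fragments that a count of 0 allows, so no difference in March1 was detectable at this depth. The other family members were 8.40% to 23.3% identical to March8-201 overall and 34.5% to 57.4% identical within the pattern.

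March2 (chromosome 17) and March3 (chromosome 18) encode relatives that act at endosomes. March2 measured 16.8, 15.4 and 15.9 FPKM in Con, 20.5, 14.4 and 15.8 in TNF-α and 14.4, 16.2 and 20.1 in TNF-α+WBT. The groups overlapped, with a high library in TNF-α and another in TNF-α+WBT. For TNF-α+WBT against TNF-α its log2 fold change was 0.0008 (limma 95% interval -0.34 to 0.34), a range that leaves changes of moderate size possible. March3 measured 3.21, 3.88 and 3.54 FPKM in Con, 3.80, 5.18 and 4.18 in TNF-α and 3.01, 3.97 and 3.43 in TNF-α+WBT, from 74 to 123 estimated fragments per library. Its limma log2 fold change was 0.29 for TNF-α against Con (SE 0.15, adjusted p = 0.381) and -0.33 for TNF-α+WBT against TNF-α (SE 0.15, adjusted p = 0.794). The TNF-α libraries reached highest, but they overlapped both other groups.

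March5 (chromosome 19), the mitochondrial ligase, was the most abundant member. It measured 57.8, 62.3 and 57.5 FPKM in Con, 62.1, 64.5 and 64.5 in TNF-α and 60.3, 60.6 and 59.9 in TNF-α+WBT. The TNF-α libraries stood above the TNF-α+WBT libraries and overlapped Con. The limma log2 fold change was 0.11 for TNF-α against Con (SE 0.038, adjusted p = 0.206) and -0.08 for TNF-α+WBT against TNF-α (SE 0.038, adjusted p = 0.816). Only 47.5% to 57.0% of March5 FPKM came from transcripts that encode the RING-CH pattern, since the retained-intron transcript March5-204 averaged 25.9 FPKM beside 30.3 FPKM of the coding March5-201.

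March6 (chromosome 15), which works in the degradation of proteins at the endoplasmic reticulum, measured 29.9, 29.0 and 29.7 FPKM in Con. It measured 27.1, 26.5 and 26.2 FPKM in TNF-α and 25.8, 25.6 and 27.4 in TNF-α+WBT. All 6 libraries with TNF-α lay below all 3 Con libraries, and both treated groups overlapped each other. The limma log2 fold change was -0.15 for TNF-α against Con (SE 0.039, adjusted p = 0.069, 0.016 to 0.280 over the alternatives) and -0.17 for TNF-α+WBT against Con (SE 0.039, adjusted p = 0.053, 0.0082 to 0.248 over the alternatives). Neither passed the threshold, but without TNF-α+WBT replicate 3 the second had an adjusted p of 0.042 and a log2 fold change of -0.20. WBT beside TNF-α moved it by -0.02 (SE 0.039, limma 95% interval -0.11 to 0.07).

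March7 (chromosome 2) encodes axotrophin, a member without a clear membrane anchor. It measured 22.0, 23.2 and 23.7 FPKM in Con, 21.6, 22.6 and 24.2 in TNF-α and 23.3, 24.1 and 19.4 in TNF-α+WBT, where replicate 3 was the lowest of all libraries. Its coding transcript March7-203 averaged 12.4 FPKM, and 55.0% to 69.0% of its FPKM came from transcripts with the RING-CH pattern. March9 (chromosome 10), known for acting on MHC class I and adhesion molecules, measured 11.4, 12.0 and 11.6 FPKM in Con, 12.2, 12.5 and 12.5 in TNF-α and 11.9, 13.0 and 12.3 in TNF-α+WBT. The TNF-α libraries lay just above Con, with a limma log2 fold change of 0.09 (SE 0.048, adjusted p = 0.427). With WBT against TNF-α the log2 fold change of March9 was 0.0002 (limma 95% interval -0.11 to 0.11) and that of March7 was -0.04 (-0.23 to 0.15).

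At transcript level, 29 transcripts of the 7 genes other than March8 were tested. None had an adjusted p under 0.05 in limma in any comparison, where 0.635% of 80149 transcripts did in TNF-α against Con, 0.0424% in TNF-α+WBT against TNF-α and 0.455% in TNF-α+WBT against Con. At an unadjusted p under 0.05 there were 2, 1 and 2 of the 29 in these comparisons, where 8.14%, 5.17% and 7.67% of all transcripts passed. In March8, 6 of 16 transcripts encode the RING-CH pattern, and they made up 66.2% to 73.1% of its FPKM in Con, 66.6% to 70.2% in TNF-α and 83.6% to 87.5% in TNF-α+WBT. For March9, March6 and March2 the corresponding shares were 100%, 98.1% to 99.4% and 94.9% to 99.3% over all libraries. In March3 the share was 92.9% to 94.1% in Con and 92.6% to 94.7% in TNF-α, and in TNF-α+WBT it was lower in all 3 libraries, at 83.9% to 90.0%, with the retained-intron transcript March3-203 at 0.380 to 0.554 FPKM there.

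Of 15 genes reported as targets of MARCH8 or MARCH1, 12 could be tested, and the antigen-presentation targets Cd86, H2-Ab1 and H2-Aa were at most 0.021, 0.231 and 0.040 FPKM. In TNF-α against Con, 8 of the 12 rose and none fell at an adjusted p under 0.05 in limma, where 2.94% of all genes rose and 1.93% fell. Their median log2 fold change was 0.37, against 0.0028 over all genes. All gene lists were chosen with earlier results of these data known. Counts from the lists are therefore descriptions in each comparison and no test of the targets as a class. Fas, a death receptor, stood at 1.25, 0.998 and 1.25 FPKM in Con and 5.49, 5.96 and 6.62 in TNF-α (log2 fold change 2.28, SE 0.15, limma adjusted p = 6.4e-05). Bst2, tetherin, which holds budding virus at the surface, stood at 41.3, 43.5 and 41.9 FPKM in Con and 85.3, 91.3 and 92.5 in TNF-α (1.09, SE 0.043, adjusted p = 3.1e-06). Il1rap, the shared chain of the IL-1 and IL-33 receptors, rose by 0.66 (SE 0.044, adjusted p = 6.1e-05) and Il6st, the gp130 chain of the IL-6 receptor, by 0.45 (SE 0.056, adjusted p = 0.0023). The count was 5 without TNF-α replicate 1, and these 4 genes were called without each library in turn.

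In TNF-α+WBT against TNF-α, where March8 stood 2.31 times higher, 0 of these 12 targets passed after adjustment in limma. In every comparison these are RNA levels, and the surface protein on which the ligases act was not measured. At an unadjusted p under 0.05 there were 4, 2 higher and 2 lower, where 6.31% of all genes passed. The median log2 fold change of the 12 was -0.04, against -0.002 over all genes. Tfrc, the transferrin receptor that imports iron, measured 37.1, 37.1 and 35.4 FPKM in Con, 42.3, 36.7 and 43.1 in TNF-α and 55.8, 53.5 and 55.6 in TNF-α+WBT. The TNF-α+WBT libraries were the highest, with a log2 fold change against TNF-α of 0.44 (SE 0.061, limma adjusted p = 0.162) that passed only in limma-voom on estimated fragments (adjusted p = 0.0096). Bst2 and Il1rap had log2 fold changes of -0.17 (SE 0.043, adjusted p = 0.555) and -0.14 (SE 0.044, adjusted p = 0.657) in that comparison. In TNF-α+WBT against Con, 8 of the 12 rose and none fell, where 2.31% of all genes rose and 1.4% fell, with Tfrc at 0.59 (SE 0.061, limma adjusted p = 0.0010). Without each library in turn, 6 to 9 of the 12 were called.

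**Figure D5:**
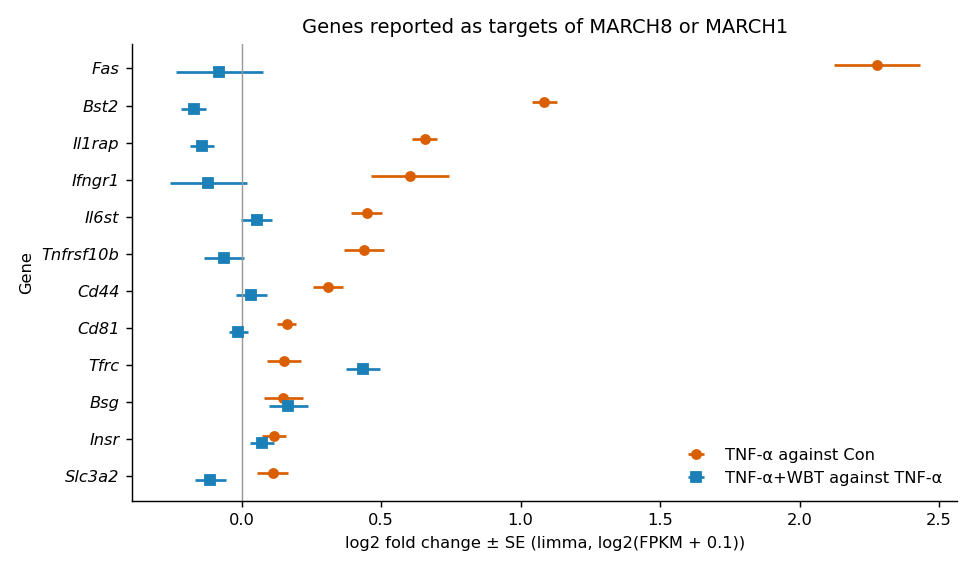
Log2 fold change with its SE in the limma fit for the 12 tested genes reported as targets of MARCH8 or MARCH1. All 12 lie above 0 in TNF-α against Con, from 0.11 to 2.28, while in TNF-α+WBT against TNF-α they lie between -0.17 and 0.44, with Tfrc highest. The list was chosen with earlier results of these data known.

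Of 25 genes reported as targets of other MARCH ligases, 3 rose and 1 fell in TNF-α against Con, 3 rose in TNF-α+WBT against Con and none was called in TNF-α+WBT against TNF-α, where 3 had an unadjusted p under 0.05. Of all genes, 2.94% rose and 1.93% fell in the first of these comparisons, 2.31% rose in the second, and 6.31% passed unadjusted in the last. The MHC class I genes H2-D1 and H2-K1 had log2 fold changes of 1.25 (SE 0.048) and 1.18 (SE 0.093) in TNF-α against Con, and near-identical stretches of these genes leave the division of reads between them uncertain. Mavs, the mitochondrial adaptor of RNA sensing and a target of MARCH5, fell by 0.28 on the log2 scale (SE 0.046, limma adjusted p = 0.0092).

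Among 35 tested E2 enzymes, 1 rose and 1 fell in TNF-α against Con, where 4.86% of all genes were called, so the share of E2 enzymes was near the background. Ube2l6, the E2 of ISG15, stood at 4.07, 6.09 and 2.50 FPKM in Con and 8.84, 10.3 and 8.77 in TNF-α (log2 fold change 1.21, SE 0.26, limma adjusted p = 0.036), a call lost in 7 of the 9 fits that left out a library, those without Con replicate 1 or any treated library. Ube2r2, a CDC34-type E2, fell by 0.21 on the log2 scale (SE 0.041, limma adjusted p = 0.023), a call kept without TNF-α replicate 1 or any TNF-α+WBT library and lost without each of the others. Against the same background of 4.86%, 3 of 30 tested membrane RING ligases outside the family were called: Rnf19b rose by 0.30 (SE 0.050, limma adjusted p = 0.0093), Rnf149 fell by 0.27 (SE 0.043, adjusted p = 0.0080) and Trim13, a ligase of the endoplasmic reticulum, fell by 0.61 (SE 0.12, adjusted p = 0.021). The Trim13 call was lost without Con replicate 1, Con replicate 3 or any TNF-α library. Of 30 ESCRT genes 3 were called: Vps37c and Mvb12a, subunits of ESCRT-I, rose by 0.32 (SE 0.060) and 0.32 (SE 0.068), and Mvb12b fell by 0.21 on the log2 scale (SE 0.038, limma adjusted p 0.019, 0.032 and 0.018). Each of these 3 calls was lost in at least 4 of the 9 fits that left out a library, with adjusted p then from 0.053 to 0.107.

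In TNF-α+WBT against TNF-α, none of the E2, membrane RING or ESCRT genes had a limma adjusted p under 0.05, with 1, 2 and 2 at an unadjusted p under 0.05 and none in limma-voom after adjustment. With 6.31% of all genes at an unadjusted p under 0.05, these counts were near or below the background. Their median log2 fold changes were 0.01, 0.0005 and -0.0051, against -0.002 over all genes. In TNF-α+WBT against Con, 1, 3 and 2 were called, where 3.71% of all genes were, among them Ube2l6 (1.25, SE 0.26) and Rnf19b (0.39, SE 0.050). Without each library in turn the counts were 0 to 1, 1 to 2 and 0 to 2. Rnf19b was called in each of these 9 fits, and the Ube2l6 call was lost in 7, those without Con replicate 1 or any treated library.

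Over the 9 libraries and 12685 other genes averaging 1 FPKM or more, the genes whose log2 level ran most like that of March8 were G2e3 (Pearson r 0.94), Stoml2 (0.92), Ndrg4 (0.91), Fam204a (0.89) and Srsf11 (0.88). These are descriptions over 3 groups that share the group means and library depth. G2e3, itself a ubiquitin ligase, measured 5.87 ± 0.072, 5.71 ± 0.162 and 6.50 ± 0.122 FPKM in Con, TNF-α and TNF-α+WBT, and Fam204a measured 11.9 ± 0.765, 10.2 ± 0.236 and 15.3 ± 2.16 FPKM (SD, n = 3 each). The largest ratio of TNF-α+WBT to TNF-α among the 5 was 1.5, in Ndrg4 and Fam204a, against 2.31 for March8. Of the 6 other MARCH genes at that level, March9 had the highest r with March8, 0.20, and March3 the lowest, -0.51.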

How the data were processed

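The authors deposited FPKM per gene and per transcript for the 9 libraries; their workflow names HISAT2, StringTie and Ballgown, and versions, genome build and annotation are not given in the sources used here. The kit is not stated to keep strand. Of 56289 genes, 55144 matched a symbol. The members and gene lists were chosen with earlier results of these data known. Genes with FPKM over 0 in 3 libraries or more were fitted with limma 3.58.1 (lmFit, eBayes with trend) in R 4.3.3 on log2(FPKM + 0.1), which understates changes of low genes, with group means as the only terms, all 9 libraries together, and Benjamini-Hochberg adjustment over all genes. The fit was tested on simulated data. An exact permutation test of 3 against 3 libraries cannot go below p = 0.1 and was not used. Depth was taken from the spacing of low values, 1 fragment apart, in 10661 genes with a single transcript over 1000 bases (58.0% to 61.0% of low values within 0.1 of a whole number, 20.0% by spacing alone), so fragments are approximate and limits cover counting error only. Transcript structures, protein lengths and identities come from GENCODE M21, with global alignments in Biopython 1.88. The genes named are the 8 members, all March8 transcripts, the other family genes, up to 4 called genes of a list per comparison with the smallest p, the 5 most correlated with March8 and the 2 nearest coding genes on each side. The values of 1 called gene among the targets of other MARCH ligases are not reported here. Replicate numbers did not pair the libraries (same-numbered libraries correlated at -0.05 to 0.10), so no block was used. The scripts ran in Python 3.11.15 with numpy 2.4.6, matplotlib 3.10.9, scipy 1.17.1 and pandas 2.3.3.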

Additional observations from a re-analysis of the deposited data

How the results depend on the processing

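The March8 difference between TNF-α+WBT and TNF-α kept its direction under all 20 alternatives, at 1.14 to 1.25 on the log2 scale without each library in turn, and was 1.79 in limma-voom on estimated fragments; between TNF-α+WBT and Con that alternative gave 1.49. The March8 share in transcripts reaching the gene end was 72.6%, 72.0% and 91.5% by estimated fragments in Con, TNF-α and TNF-α+WBT, since fragments are not divided by length. Of the 7 other members, 1 (March6) was called in TNF-α against Con under quantile normalization and limma-voom, and in TNF-α+WBT against Con under pseudocount 1, a mean of at least 1 FPKM, quantile normalization and limma-voom, and 0 to 1 without each library in turn. None was called in TNF-α+WBT against TNF-α under any alternative. At an unadjusted p under 0.05, 1 of the 7 passed in that comparison under 8 of the 20 alternatives. In TNF-α against Con, 1 to 3 passed unadjusted.

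Genes called in TNF-α+WBT against TNF-α numbered 11 with pseudocount 0.01, 10 with no filter, 7 with no trend, 2 with only the groups compared, 2 with summed transcripts, 5 in limma-voom, 0 with the replicate block and 0 to 10 without each library. Without each library the counts were 823 to 1111 in TNF-α against Con and 579 to 826 in TNF-α+WBT against Con. Over the 5 lists of targets, E2 enzymes, membrane ligases and ESCRT genes, 20 genes were called in TNF-α against Con and 17 in TNF-α+WBT against Con. They became 10 and 10 with no trend, 13 with only the groups compared (TNF-α), and 12 to 19 and 10 to 15 without each library; limma-voom called 1, Tfrc, in TNF-α+WBT against TNF-α. Reported targets of MARCH8 and MARCH1 called in TNF-α against Con were 5 with no filter, 5 with no trend and 5 to 8 without each library. With the replicate block no call at an adjusted p under 0.05 changed for the 7 MARCH genes other than March8. At an unadjusted p under 0.05 in limma, 3 of the 7 then passed in TNF-α against Con and 1 in TNF-α+WBT against TNF-α. The cause of these shifts was not tested. Depth limits March1, March10 and March4, and rare March8 transcripts.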
